A study of Mus musculus with 40 samples.

Results

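Toll-like receptors are the receptors through which phagocytes and other cells sense molecules of microbes and of damaged cells. The 10 genes Tlr1 to Tlr9 and Tlr13 were taken from the table by their Ensembl identifiers, out of 54307 genes listed, and all 10 were above 0 in at least 28 of the 40 libraries. Choroid and retina were sequenced from the same 20 mice, and each of the 8 combinations of tissue, genotype and diet holds 5 mice. All 4 groups of mice carried floxed alleles of Tgfbr2, the gene of a TGFβ receptor. Tgfbr2ΔEC mice (labelled CrePos) also carried Cdh5-CreERT2, a Cre recombinase that is active in endothelial cells after tamoxifen, and controls (labelled CreNeg) were littermates without it. Both genotypes received tamoxifen eye drops for 5 days from an age of 6 to 7 weeks. In each genotype, 5 mice were fed PLX5622 (PLX), an inhibitor of the CSF1 receptor that depletes mononuclear phagocytes (MP), from the first tamoxifen drop to the end, and 5 a control diet. The groups are referred to as control – PLX, Tgfbr2ΔEC – PLX, control + PLX and Tgfbr2ΔEC + PLX. All mice had 6 laser burns per eye, which break Bruch's membrane and induce choroidal neovascularization (CNV), and tissue was taken 3 days later, so no group was free of injury. The choroid samples held the central choroid with its lesions, and both sexes were included.

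The receptors fall into 2 kinds by the place from which they signal. At the cell surface, Tlr2 pairs with Tlr1 or Tlr6 to bind bacterial lipoproteins, Tlr4 binds lipopolysaccharide with its partner Ly96 and with Cd14, and Tlr5 binds flagellin. In endosomes, Tlr3 binds double-stranded RNA, Tlr7 and Tlr8 bind single-stranded RNA and its fragments, Tlr9 binds unmethylated CpG DNA and Tlr13, which mice have and humans lack, binds bacterial ribosomal RNA. All but Tlr3 signal through the adaptor Myd88, and Tlr3 and Tlr4 signal through Ticam1. Microglia and macrophages carry most of these receptors, whereas Tlr3 and Tlr4 are also found in vascular, glial and epithelial cells of the eye.

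The upstream sequences of 4 members are shown as examples, to let the motifs named here be seen in place. Tlr13, Tlr9 and Tlr8 were lower in choroid on PLX, and Tlr3 was not called. Each run is the 250 bases directly before the start of the gene's canonical transcript in GENCODE vM39, read from GRCm39 and written 5′ to 3′ in the direction of transcription. For Tlr3 this window lies inside the span of the gene, and for Tlr8 partly inside it, since another transcript of each starts further upstream. The last base of the Tlr13 window is also the first base of that gene's span. Capitals mark matches to any of 3 motifs on either strand: GAGGAA, the core of sites for PU.1, the transcription factor of myeloid cells; GAAANNGAA, which is part of interferon-response elements; and TGANTCA, the site of AP-1.
Tlr13, chrX:105186561-105186810, plus strand: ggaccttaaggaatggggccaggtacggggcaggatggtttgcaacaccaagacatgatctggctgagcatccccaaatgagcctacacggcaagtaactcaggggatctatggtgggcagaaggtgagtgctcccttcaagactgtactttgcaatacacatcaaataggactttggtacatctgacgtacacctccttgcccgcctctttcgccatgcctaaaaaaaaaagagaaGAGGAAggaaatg
Tlr9, chr9:106099547-106099796, plus strand: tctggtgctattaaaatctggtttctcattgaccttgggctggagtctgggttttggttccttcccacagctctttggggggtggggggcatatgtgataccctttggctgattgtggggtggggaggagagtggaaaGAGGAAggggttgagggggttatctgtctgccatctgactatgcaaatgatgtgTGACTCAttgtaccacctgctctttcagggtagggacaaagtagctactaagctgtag
Tlr8, chrX:166047283-166047532, minus strand: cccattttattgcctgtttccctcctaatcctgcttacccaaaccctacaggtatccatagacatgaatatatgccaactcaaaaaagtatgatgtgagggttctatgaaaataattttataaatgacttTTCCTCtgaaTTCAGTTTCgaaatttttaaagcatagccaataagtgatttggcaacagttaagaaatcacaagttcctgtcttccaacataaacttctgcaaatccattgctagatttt
Tlr3, chr8:45863425-45863674, minus strand: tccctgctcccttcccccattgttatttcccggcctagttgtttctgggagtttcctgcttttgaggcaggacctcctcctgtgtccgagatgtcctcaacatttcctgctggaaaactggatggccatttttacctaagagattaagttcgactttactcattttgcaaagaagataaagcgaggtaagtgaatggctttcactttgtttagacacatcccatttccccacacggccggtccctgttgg
The core GAGGAA was found upstream of 5 of the 10 members (Tlr2, Tlr4, Tlr8, Tlr9 and Tlr13) and of 22.9% of 21770 protein-coding genes. Its longer form GAGGAAGT was upstream of none of the members and of 2.08% of all. GAAANNGAA was found upstream of 1 member, Tlr8, and of 7.55% of all genes, and TGANTCA upstream of Tlr9 alone among the members and of 6.17% of all genes. Tlr3 held no match to these letters in this window. The core did not follow the calls in choroid, since Tlr4, which was not called, held it, and 4 of the 8 called lower, Tlr1, Tlr5, Tlr6 and Tlr7, did not. These matches are descriptions of sequence, and binding was not measured.

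The genes lie on chr5 (Tlr1, 65082022-65090941, and Tlr6, 65108704-65203497, both on the minus strand), chr3 (Tlr2, 83743576-83749074, minus), chr4 (Tlr4, 66745783-66849936, plus), chr1 (Tlr5, 182782311-182805500, plus), chr8 (Tlr3, 45848702-45864117, minus), chr9 (Tlr9, 106099797-106104082, plus) and chrX (Tlr8, 166024184-166047325, minus; Tlr7, 166086758-166113605, minus; and Tlr13, 105186810-105204533, plus), all in GRCm39. Values cover the whole gene. Tlr1 and Tlr6 share stretches of sequence: 15.1% of the windows of 50 bases, the length of a read, in the Tlr1 transcript also occur in Tlr6, and 10.6% of those in Tlr6 occur in another gene, so their reads are partly uncertain between them. In Tlr7, 6.51% of the windows also occur in other genes, none of them a member, and the other 7 transcripts held no shared window. Tlr6 overlaps Fam114a1 on the opposite strand, a gene with a mean of 1476 normalized counts, and the libraries were stranded. GENCODE places noncoding genes within Tlr3, Tlr4 and Tlr6 too, each of which is absent from the table or has a mean under 1 normalized count.

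The deposited values are normalized counts, estimated reads per gene divided by a scaling factor of the library, with both tissues scaled together. They summed to between 24718469 and 25956180 per choroid and between 22256892 and 24507335 per retina, and 1 read was worth about 0.745 to 1.195 normalized counts. A value under 3 reads, 2.24 to 3.59 normalized counts depending on the library, was read as being at the limit of detection. Neural retina markers summed to between 1035430 and 1542450 normalized counts in retinas. In choroids they reached 4014 to 28320 in control – PLX, 48630 to 138483 in Tgfbr2ΔEC – PLX, 4495 to 134533 in control + PLX, where mouse 15 was highest, and 8262 to 22202 in Tgfbr2ΔEC + PLX. Markers of the retinal pigment epithelium summed to 156540 to 360091 in choroids and 6627 to 13950 in retinas. Tgfbr2 itself overlapped between genotypes, with 9836 to 10849 normalized counts in control – PLX and 8729 to 11304 in Tgfbr2ΔEC – PLX choroids. This value covers all cells and the whole gene and therefore does not check the endothelial deletion.

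MP markers give the background for all results with PLX. The 18 markers found in the table, among them Csf1r, Cx3cr1 and the C1q chains, summed to 52117 to 62890 normalized counts in the 10 choroids without PLX and to 14275 to 22142 in the 10 with it. In retinas the sums were 2459 to 6132 and 431 to 616, and Adgre1 was listed at 0 in every retina on PLX. In choroid 5.06% of all tested genes were called lower by limma. Of the 18 MP markers 17 were, as were all 8 markers of tissue-resident macrophages, 4 of 7 of dendritic cells, 3 of 9 of B and plasmacytoid cells, 1 of 7 of neutrophils and 1 of 10 of T and NK cells. Higher with PLX in choroid were 6 of 10 endothelial, 3 of 10 fibroblast and mural and 1 of 6 mast cell markers, where 2.07% of all genes were called higher, and the endothelial markers summed to 28899 to 35520 normalized counts without PLX and 32381 to 42518 with it. The part of these other cells in the results was not tested. In bulk tissue, fewer cells of a type and less RNA per cell cannot be told apart.

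Tlr13 and Tlr7 were the receptors with the highest levels in choroid without PLX, and Tlr3 and Tlr4 took their place with PLX. Compared per kilobase of exon, the mean level in the 10 choroids without PLX was 232 ± 28.8 normalized counts per kilobase (SD, n = 10) for Tlr13 and 171 ± 32.8 for Tlr7. Tlr3 followed at 130 ± 21.4, Tlr2 at 117 ± 8.90, Tlr4 at 99.2 ± 9.69, Tlr1 at 93.7 ± 20.8 and Tlr8 at 79.5 ± 17.6. Tlr9 (55.1 ± 13.1), Tlr6 (33.7 ± 12.3) and Tlr5 (16.02 ± 4.71) were lowest. Every pair of neighbours in this order had overlapping intervals of mean ± SD, except Tlr6 and Tlr5. The place of Tlr4 depended on the length used, because its longest transcript is 4.12 kilobases against 7.01 kilobases of exon, and gave 169 per kilobase. With PLX the order was Tlr3 (125 ± 23.1), Tlr4 (87.1 ± 13.8), Tlr2 (69.1 ± 6.16), Tlr13 (68.0 ± 13.4), Tlr7 (27.02 ± 14.0), Tlr1 (23.7 ± 6.35), Tlr8 (20.1 ± 5.53), Tlr6 (20.05 ± 7.88), Tlr9 (13.8 ± 5.15) and Tlr5 (8.94 ± 3.01). Here the intervals of Tlr3 and Tlr4 and those of Tlr13 and Tlr7 did not overlap, but with the length of the longest transcript Tlr4 (148) stood above Tlr3 (144), so the order of these receptors depends on the length used.

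Of the summed level per kilobase of the 10 receptors in choroid, Tlr13 and Tlr7 made up 22.6% ± 1.46 and 16.6% ± 2.04 without PLX and 14.8% ± 3.13 and 5.71% ± 2.32 with it (SD, n = 10 each). Tlr3 held 12.6% ± 1.76 without PLX and 26.99% ± 3.61 with it, and Tlr4 9.70% ± 0.765 and 18.8% ± 2.43, while the levels of both did not pass the test between diets. The endosomal receptors together held 64.8% ± 2.53 of the sum without PLX and 54.8% ± 2.99 with it. The sum itself was 848.5 to 1160 normalized counts per kilobase without PLX and 381.9 to 556.6 with PLX.

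**Figure D1:**
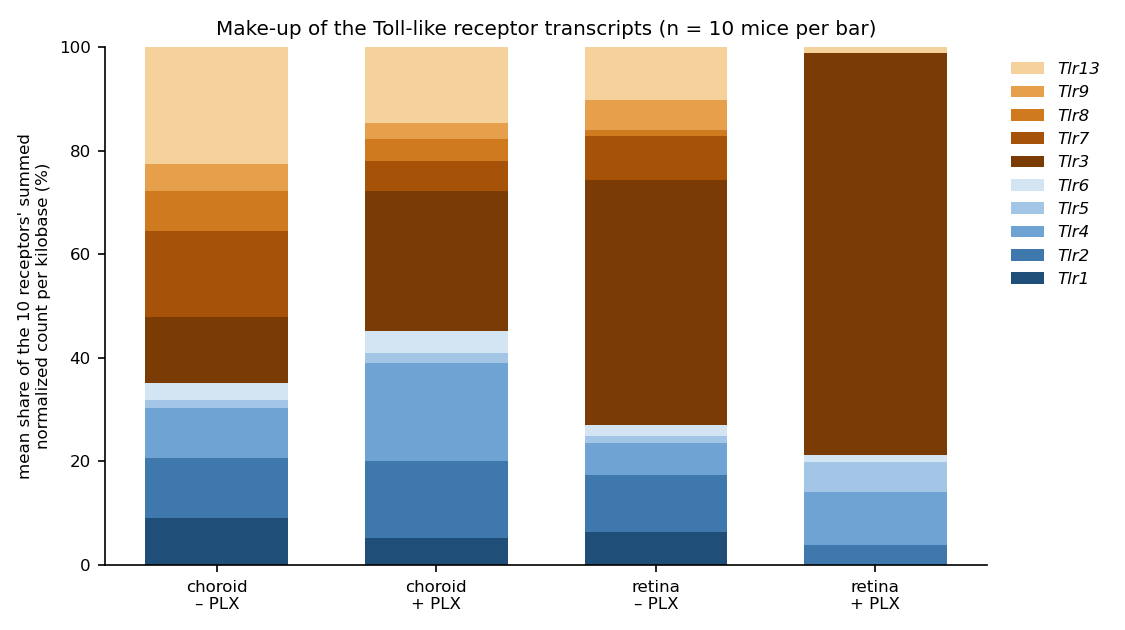
Mean share (%) of each receptor in the summed normalized count per kilobase of the 10 receptors, for choroid and retina without and with PLX (n = 10 mice per bar; orange and brown, endosomal; blue, cell surface). Tlr13 and Tlr7 take 22.6% and 16.6% in choroid without PLX, and Tlr3 takes 77.5% in retina with PLX.

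Choroids with and without PLX were then compared to ask which receptors followed the loss of MP. Of the 10 receptors, 8 were lower with PLX over both genotypes (limma on log2(normalized count + 1), 4 groups in one fit, adjusted p at or under 0.05 over 23619 genes), against 5.06% of all tested genes that were called lower. None was called higher. Differences ran from a fall of 2.76 on the log2 scale for Tlr7 to 0.76 for Tlr2 among those called, and the median over the 10 receptors was -1.31, with a median of 0.00054 over all genes tested and of -1.99 over the 18 MP markers. In 6 receptors (Tlr1, Tlr2, Tlr7, Tlr8, Tlr9 and Tlr13) the highest choroid with PLX lay below the lowest without. The share of all tested genes that separate in this way was not determined, so this is a description of the values only.

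Among the endosomal receptors, Tlr7 fell most. Its normalized counts were 702, 685, 951, 1047 and 1060 in control – PLX and 762, 1180, 1019, 932 and 742 in Tgfbr2ΔEC – PLX choroids. They were 99.5, 135, 162, 136 and 85.5 in control + PLX and 141, 340, 136, 74.7 and 122 in Tgfbr2ΔEC + PLX choroids. The diets did not overlap, although mouse 17 of Tgfbr2ΔEC + PLX stood apart at 340. The log2 difference was -2.76 (SE 0.20, limma adjusted p = 2.41e-09), and the mean with PLX was 15.8% of that without.

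Tlr13, the receptor of bacterial ribosomal RNA, had the highest counts of the family without PLX. It ranged from 883 to 1338 normalized counts (median 1104, n = 10) without PLX and from 218 to 416 (median 334) with it, with no overlap. The log2 difference was -1.78 (SE 0.11, limma adjusted p = 3.79e-10), and 29.4% of the mean was kept. Tlr9, the DNA receptor, ranged from 132 to 271 (median 177) without and from 26.2 to 89.8 (median 46.1) with PLX. Its log2 difference was -2.02 (SE 0.19, limma adjusted p = 1.37e-07). Tlr8 ranged from 216 to 543 (median 421) and from 60.0 to 143 (median 102), respectively, with a log2 difference of -1.99 (SE 0.17, limma adjusted p = 4.11e-08). The means kept 25.1% in Tlr9 and 25.3% in Tlr8, and neither gene overlapped between diets. Markers of B cells and plasmacytoid cells, which also carry Tlr7 and Tlr9, summed to 1705 to 2269 normalized counts without PLX and 1258 to 2174 with it. Most of this sum was Bst2, with means of 1731 and 1465. Of the 9 markers, 2 did not overlap between diets, Siglech (64.9 and 14.3) and Cd79b (50.8 and 16.9). Over the list the share of the mean kept ran from 22.1% to 187%, with a median of 101%. The part of these cells in the differences was not tested.

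Tlr3 was the exception among the endosomal receptors. It ranged from 556 to 923 normalized counts (median 695) without PLX and from 529 to 873 (median 655) with it, so that the diets overlapped almost fully. The log2 difference was -0.05, with a 95% interval of -0.27 to 0.17 (limma adjusted p = 0.847). The mean with PLX was 96.8% of that without.

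At the cell surface, Tlr1 and Tlr2 fell without overlap and the others overlapped. Tlr1 ranged from 221 to 418 normalized counts (median 329) without PLX and from 39.8 to 119 (median 84.6) with it, a log2 difference of -1.99 (SE 0.17, limma adjusted p = 4.43e-08), and kept 25.3% of its mean. Tlr2, its partner, ranged from 570 to 720 (median 637) and from 322 to 435 (median 381). The log2 difference of Tlr2 was -0.76 (SE 0.07, limma adjusted p = 4.25e-08), and 59.0% of its mean was kept.

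Tlr6, the other partner of Tlr2, ranged from 121 to 326 (median 146) without PLX and from 62.9 to 175 (median 80.6) with it. Its log2 difference was -0.77 (SE 0.20, limma adjusted p = 0.0225). With a neural retina score as a covariate the difference was -0.56 and the limma adjusted p was 0.125, so this call was lost. Tlr5, the flagellin receptor and the lowest of the 10 per kilobase in choroid, ranged from 57.9 to 163 (median 110) and from 34.6 to 101 (median 61.2), with a log2 difference of -0.84 (SE 0.21, limma adjusted p = 0.0140). In both genes the diets overlapped.

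Tlr4, the lipopolysaccharide receptor, was not called. It ranged from 601 to 773 normalized counts (median 697) without PLX and from 426 to 744 (median 635) with it. The log2 difference was -0.20, with a 95% interval of -0.38 to -0.02 (limma adjusted p = 0.209). In the exact permutation test of diet within genotype, which has a smallest p of 3.15e-05 and is not adjusted over genes, Tlr4 had p = 0.0402 and Tlr3 p = 0.628. The other 8 receptors had exact p from 3.15e-05 to 0.00202.

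**Figure D2:**
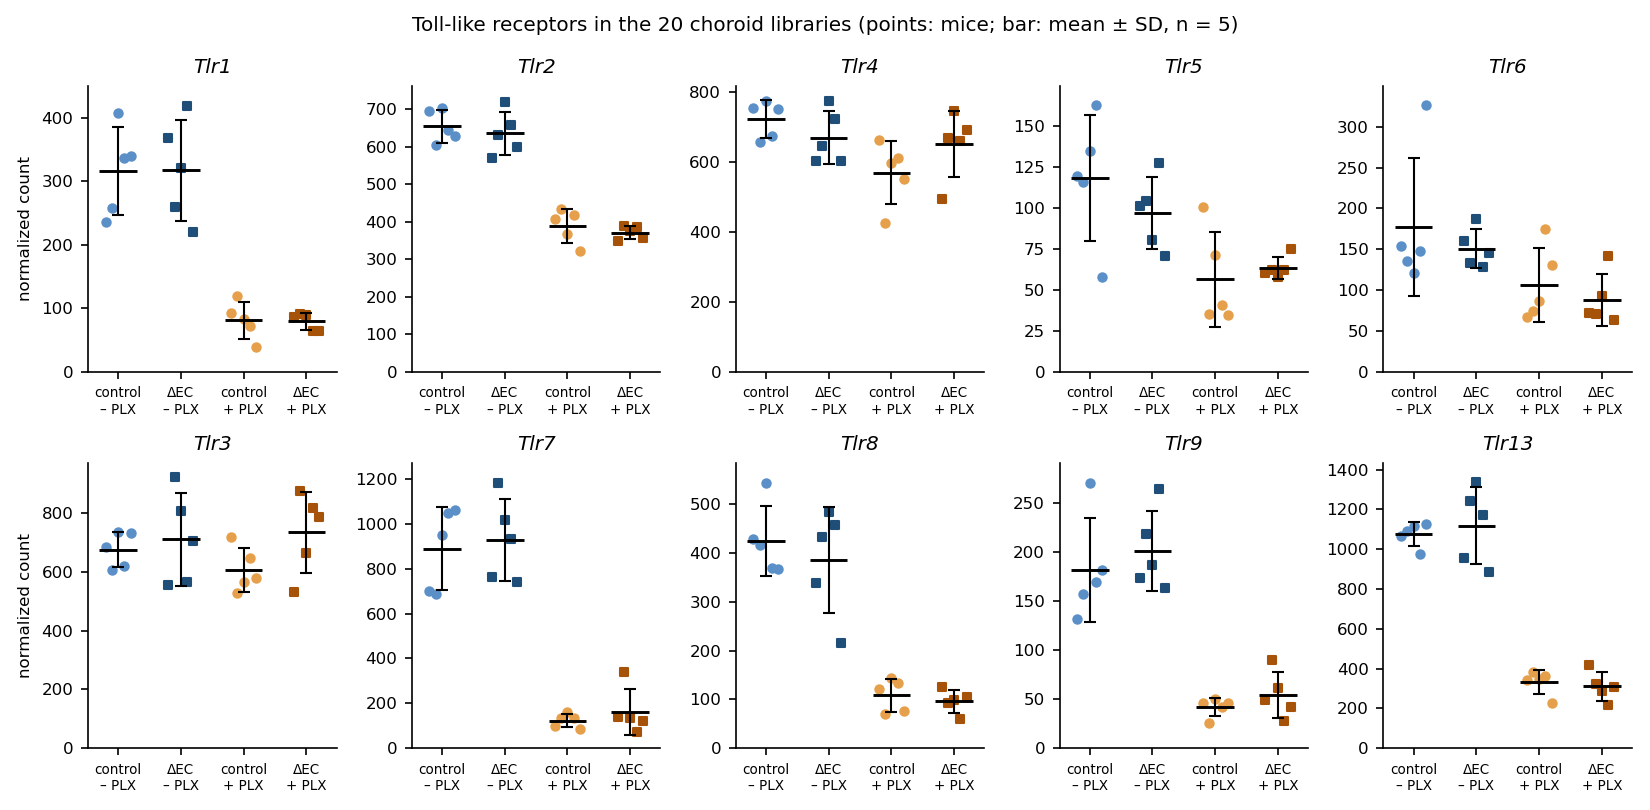
Normalized count of each receptor (y axis, linear from 0) in the 4 groups of choroids; each point is a mouse, and the bar shows mean ± SD (n = 5). Tlr7, Tlr13, Tlr9, Tlr8, Tlr1 and Tlr2 separate by diet, while Tlr3 and Tlr4 overlap.

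Within each genotype most of the same receptors were called. Tlr4, called in neither, had a log2 difference of -0.36 in control choroids (limma adjusted p = 0.149, exact permutation p = 0.0159). In Tgfbr2ΔEC choroids it was -0.04 (limma adjusted p = 0.927, exact permutation p = 0.762). In control choroids 7 receptors were lower with PLX (Tlr1, Tlr2, Tlr5, Tlr7, Tlr8, Tlr9 and Tlr13), where 3.15% of all genes were, and in Tgfbr2ΔEC choroids 6 were (the same without Tlr5), where 3.5% of all genes were. Neural retina markers of Tgfbr2ΔEC choroids did not overlap between diets, at 48630 to 138483 normalized counts without PLX and 8262 to 22202 with it. Diet and neural RNA thus go together in this genotype, and the test between genotypes includes these choroids. The call of Tlr5 in control choroids was lost when any of mice 1, 2, 3, 4, 12, 14 or 15 was left out, with limma adjusted p from 0.0763 to 0.113. Its values were 120, 116, 135, 163 and 57.9 in control – PLX and 101, 35.2, 71.7, 40.7 and 34.6 in control + PLX choroids. The difference of the PLX effect between the genotypes was called for 0 of 10 receptors in choroid (limma, 0% of all genes called). At an unadjusted p under 0.05 were 0 of 10 receptors and 1552 of 23619 genes. Estimates ran from -0.15 to 0.53 on the log2 scale, with SE from 0.13 to 0.42.

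In retina the same comparison was made, at much lower levels. Over both genotypes 6 of the 10 receptors were lower with PLX (limma, 23243 genes tested), against 1.08% of all tested genes called lower, and none was called higher. With genes listed at 0 counted as 0%, the 10 receptors kept a median of 8.48% of their mean and the 18 MP markers 1.74%, while the median log2 difference over all genes was 0.0026. All 18 MP markers were called lower. Tlr1, Tlr7 and Tlr9 were above 0 in all 10 retinas without PLX and were listed at 0 in all 10 with it, so no fold is given for them, and their fitted differences depend on the pseudocount. The 7 genes checked that every cell uses, among them Actb and Tbp, had at least 359 normalized counts in every library. Neutrophil markers summed to 25.3 to 221 normalized counts in retinas without PLX and 2.79 to 32.01 with it. Most of this sum was Csf3r, a cytokine receptor gene, with means of 72.5 and 6.91, while the other 9 markers had means of at most 10.9 and Camp was listed at 0 throughout. Markers of B cells and plasmacytoid cells summed to 127 to 297 normalized counts in retinas without PLX and 70.4 to 178 with it. Those of dendritic cells summed to 226 to 334 and 200 to 289. The part of neutrophils and of these other cells in the differences was not tested.

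Tlr7 was read at 25.04, 13.6, 10.4, 15.0 and 32.3 normalized counts in control – PLX and at 42.1, 9.62, 38.4, 69.7 and 9.68 in Tgfbr2ΔEC – PLX retinas (limma adjusted p = 1.04e-08 against the retinas with PLX). Tlr9 ranged from 1.88 to 26.2 (median 11.1) without PLX (limma adjusted p = 9.35e-06) and Tlr1 from 0.816 to 29.7 (mean 13.4, limma adjusted p = 0.000122), and the lowest of these values lie under 3 reads. Tlr13 ranged from 12.2 to 62.1 (median 21.6) without PLX and from 0 to 2.86 (median 1.04) with it, where all 10 values lay at or under about 3 reads. Its log2 difference was -3.69 (SE 0.34, limma adjusted p = 2.76e-07), and the diets did not overlap.

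Tlr2 ranged from 6.32 to 72.6 normalized counts (median 30.9) without PLX and from 0.851 to 13.5 (median 3.17) with it, a log2 difference of -2.58 (SE 0.40, limma adjusted p = 0.000421). The diets overlapped, since mouse 14 with PLX read 13.5 and mouse 10 without PLX 6.32. Tlr6 ranged from 1.62 to 8.48 and from 0 to 4.50, with a log2 difference of -1.58 (SE 0.35, limma adjusted p = 0.0222). This call was lost when mouse 1, 6, 8, 15, 18, 19 or 20 was left out, with limma adjusted p from 0.0514 to 0.0551.

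The other 4 receptors were not called in retina. Tlr3 was by far the highest receptor there, at 26.1 ± 8.59 normalized counts per kilobase without PLX against 6.15 ± 4.27 for the next, Tlr2, and the intervals did not overlap. It ranged from 73.8 to 197 normalized counts (median 142) without and from 56.8 to 124 (median 94.3) with PLX. The log2 difference was -0.56, with a 95% interval of -0.91 to -0.21, and did not pass the adjustment over all genes (limma adjusted p = 0.212, unadjusted p = 0.00351, exact permutation p = 0.00469). Tlr3 made up 47.4% ± 12.8 of the summed level of the receptors without PLX and 77.5% ± 11.3 with it.

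Tlr4 ranged from 10.1 to 57.5 normalized counts (median 20.5) without and from 3.99 to 46.1 (median 10.4) with PLX, a log2 difference of -0.67 with a 95% interval of -1.46 to 0.11 (limma adjusted p = 0.908). Tlr5 ranged from 0.706 to 39.8 (median 2.59) and from 1.08 to 48.9 (median 3.59), and its log2 difference of 0.47 had a 95% interval of -0.66 to 1.61. Tlr8 was above 0 in 7 of 10 retinas without PLX, at up to 14.7, and in 1 of 10 with it, at 1.02. Its log2 difference was -1.47 (SE 0.47, limma adjusted p = 0.278, exact permutation p = 0.00728).

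**Figure D3:**
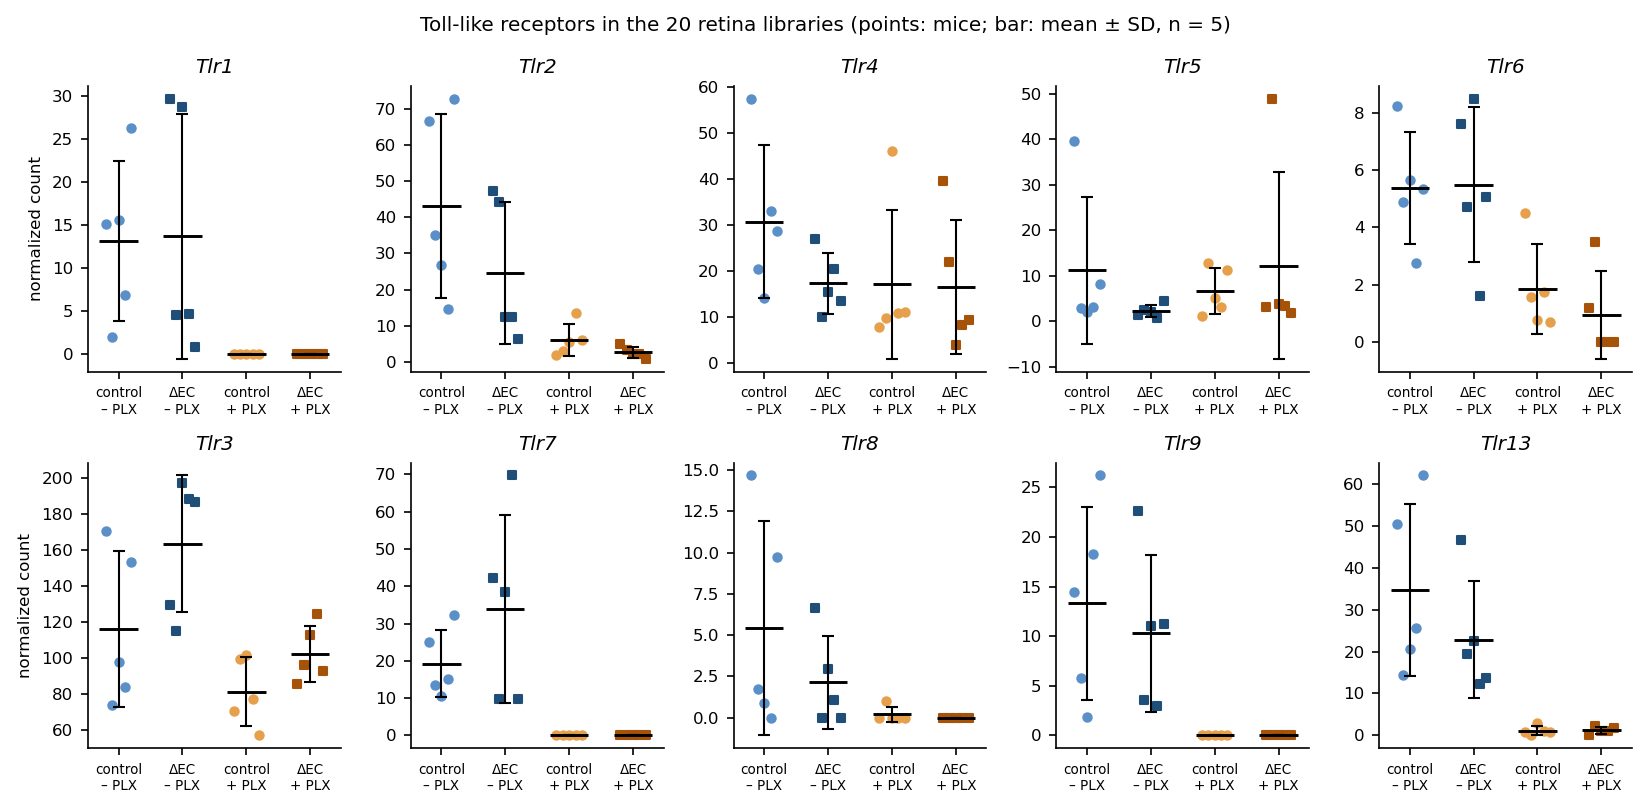
Normalized count of each receptor (y axis, linear) in the 4 groups of retinas; each point is a mouse, and the bar shows mean ± SD (n = 5). Tlr1, Tlr7 and Tlr9 are at 0 in all retinas with PLX, whereas Tlr3 stays between 56.8 and 124 there.

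Within each genotype 5 receptors were called lower in retina, Tlr1, Tlr2, Tlr7, Tlr9 and Tlr13, in controls against 0.727% and in Tgfbr2ΔEC mice against 0.512% of all genes. The calls of Tlr7, Tlr9 and Tlr13 held without any single mouse. That of Tlr2 was lost in controls without mouse 1, 2, 5, 11, 12 or 13 (limma adjusted p from 0.0502 to 0.0928). In Tgfbr2ΔEC retinas Tlr2 was lost without mouse 2, 3, 6, 7, 8, 9, 12, 13, 15, 17, 18, 19 or 20 (limma adjusted p from 0.0547 to 0.194). There Tlr1 was lost without mouse 6, 8, 16, 17, 18, 19 or 20 (limma adjusted p of 0.0547 or higher), and Tlr6 was gained without mouse 17 (limma adjusted p = 0.0221). The difference of the PLX effect between genotypes was called for 0 of 10 receptors in retina (limma, 0% of all genes). At an unadjusted p under 0.05 were 0 of 10 receptors and 567 of 23243 genes. For Tlr1, Tlr7 and Tlr9, at 0 in every retina with PLX, this contrast only restates the difference between genotypes on the control diet.

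**Figure D4:**
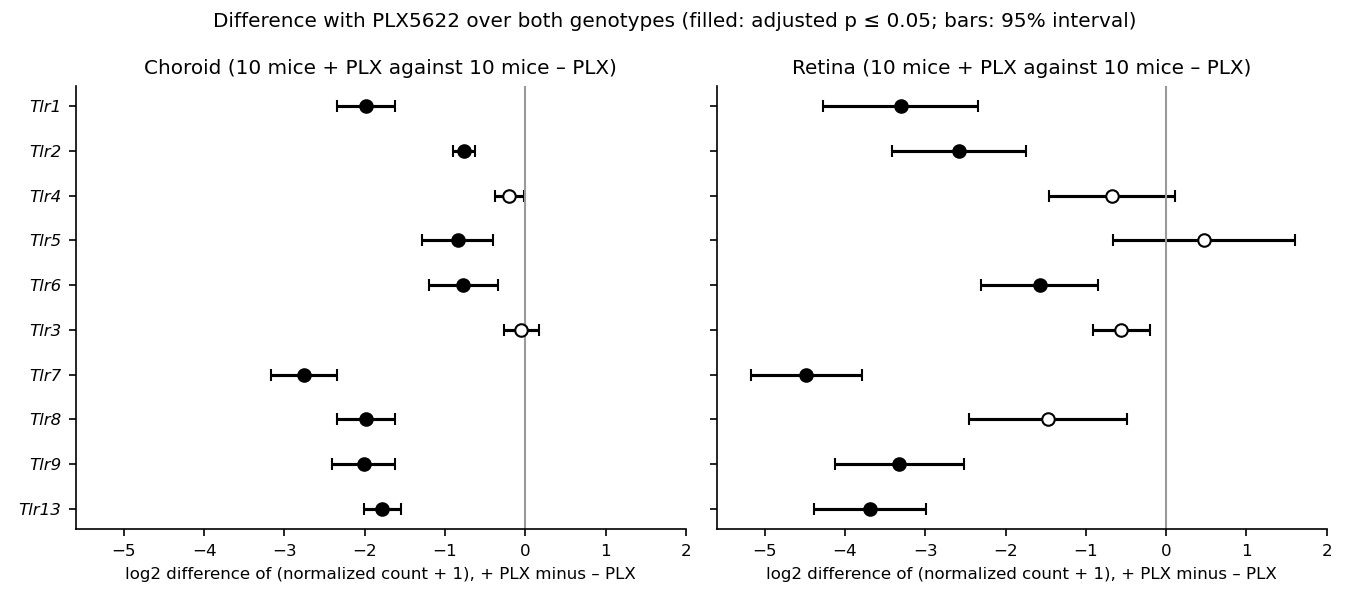
Log2 difference of (normalized count + 1) between mice with and without PLX (x axis) for each receptor in choroid and retina, over both genotypes (n = 10 against 10); bars are 95% intervals, and filled points passed an adjusted p of 0.05. Tlr7 is leftmost in both tissues, at -2.76 in choroid and -4.48 in retina (a value that depends on the pseudocount, as all retinas with PLX are at 0), and Tlr3 and Tlr4 are open in both.

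Choroid and retina differed in every receptor. Without PLX, all 10 were higher in choroid, where 37.7% of 24317 genes were, with log2 differences from 2.36 (SE 0.14) for Tlr3 to 7.06 (SE 0.36) for Tlr8. With PLX all 10 were again higher in choroid, where also 37.7% of genes were, from 2.87 (SE 0.14) for Tlr3 to 7.31 (SE 0.24) for Tlr13 (limma, highest adjusted p over both diets = 1.87e-08). On this log2 scale Tlr3 had the smallest difference in both diets, while in the ratio of means with PLX Tlr5 (6.38) was below Tlr3 (7.32). The mean of Tlr8 without PLX was 405 normalized counts in choroid and 3.77 in retina, and that of Tlr3 was 693 and 140.

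Whether PLX acted with a different size in the tissues was tested directly. The fall was smaller in choroid than in retina for Tlr13 (difference of the log2 differences 1.90, SE 0.34, limma adjusted p = 0.000634), Tlr2 (1.82, SE 0.41, limma adjusted p = 0.00945) and Tlr7 (1.73, SE 0.38, limma adjusted p = 0.00730), while 1.37% of all genes were called in either direction. The estimate for Tlr7 rests on retinas at 0 and on the pseudocount of 1. With a pseudocount of 5, Tlr7 turned to -0.28 and Tlr2 and Tlr13 lost their calls, as given in the closing section. The 7 others were not called, with differences between -1.32 (Tlr5) and 1.32 (Tlr1).

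Deletion of endothelial Tgfbr2 was compared with controls in each diet and tissue. In choroid, 0 of 10 receptors were called without PLX (0.00423% of all genes) and 0 of 10 with PLX (0.00423%). In retina, 0 of 10 were called without PLX (0% of all genes) and 0 of 10 with PLX (0%). Tlr1, Tlr7 and Tlr9 were at 0 in all 10 retinas with PLX and could not differ there, and Tlr8 was above 0 in 1 of them. The log2 differences, Tgfbr2ΔEC minus control, lay between -0.24 and 0.17 in choroids without PLX and between -0.25 and 0.29 with PLX, with SE of 0.09 to 0.30. In retinas they lay between -1.24 and 0.54 without PLX and between -0.82 and 0.35 with PLX, with SE of 0.24 to 0.77. At an unadjusted p under 0.05 there was 1 receptor in retina without PLX, Tlr3 (limma adjusted p = 0.985), and 0 in each of the other 3 comparisons, and exact permutation tests gave 0 of 10 in all 4. Of all genes, 758 of 23243 were under this limma p in retina without PLX and 629 with PLX. In choroid 2184 of 23619 were without PLX and 889 with PLX. Tlr3 read 171, 73.8, 97.6, 83.6 and 154 in control – PLX and 130, 115, 197, 188 and 187 in Tgfbr2ΔEC – PLX retinas, and these values overlap. In choroid without PLX the neural retina markers of the 5 Tgfbr2ΔEC mice all lay above those of the 5 controls, so that genotype and neural RNA cannot be told apart in that comparison.

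The genes that work with the receptors were taken from fixed lists. Of 9 co-receptors and ligand carriers, 5 were lower with PLX in choroid and 4 in retina, where 5.06% and 1.08% of all tested genes were. Cd180, a receptor-like protein related to Tlr4, and its partner Ly86 fell in choroid from means of 804 to 158 (log2 difference -2.33, SE 0.11) and of 884 to 177 normalized counts (-2.36, SE 0.17). Cd14, which hands lipopolysaccharide to Tlr4, fell from 689 to 138 (-2.38, SE 0.16), and Ticam2, an adaptor that links Tlr4 to Ticam1, from 205 to 50.3 (-2.04, SE 0.14). Cd36 was the other gene called in choroid. Ly96, the direct partner of Tlr4, was not called in choroid, with means of 118 and 102 (-0.25, SE 0.15, limma adjusted p = 0.420), nor in retina, with 16.1 and 9.44 (-0.75, SE 0.30, limma adjusted p = 0.556). In retina Ly86 fell from 81.3 to 0.681 and Cd180 from 59.0 to 0.913, both to under 3 reads, and Cd14 from 37.7 to 10.98, and Ticam2 was called as well.

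Of 14 genes of receptor trafficking and processing, 8 were lower in choroid (5.06% of all genes) and 4 in retina (1.08%). Unc93b1, which carries the endosomal receptors out of the endoplasmic reticulum, fell from 3368 to 1154 normalized counts in choroid (log2 difference -1.56, SE 0.10) and from 136 to 27.6 in retina (-2.26, SE 0.26). Lgmn, a lysosomal protease, fell in choroid from 9695 to 4004 (-1.29, SE 0.08). Tasl, an adaptor of endosomal receptor signalling, fell in choroid from 74.0 to 20.2 (-1.82, SE 0.16). In retina Ctss, a cathepsin that cuts endosomal receptors, fell from 650 to 4.56 (-7.45, SE 0.47), and Slc15a3 from 32.7 to 6.60 (-2.82, SE 0.48).

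Downstream, a smaller share of each list was called, a difference between lists that was not tested. Of 21 adaptors and proximal kinases, 5 were lower in choroid (5.06% of all genes) and 3 in retina (1.08%). Myd88 had means of 888 and 767 in choroid (log2 difference -0.21, SE 0.10, limma adjusted p = 0.239) and of 251.96 and 184 in retina (-0.45, SE 0.17, limma adjusted p = 0.443). Ticam1 had 436 and 389 in choroid (-0.16, SE 0.07, limma adjusted p = 0.208) and 91.8 and 83.3 in retina (-0.14, SE 0.15). The genes called with the lowest p in choroid were Pik3ap1, an adaptor of PI3 kinase, with a log2 difference of -2.25 (SE 0.12), and the tyrosine kinases Syk (-1.06, SE 0.09) and Btk (-1.84, SE 0.25), and the same 3 were called in retina. Of 13 transcription factors, 4 were lower in choroid and 2 in retina. Irf5 fell by 1.57 on the log2 scale in choroid (SE 0.13) and by 1.93 in retina (SE 0.40), Irf8 fell by 1.17 (SE 0.16) and 1.07 (SE 0.23), and Rel fell in choroid by 0.73 (SE 0.10). Of 16 inhibitors, 4 were lower in choroid, led by Dok3 (-1.32, SE 0.15), Cd300lf (-0.71, SE 0.10) and Cd300a (-1.31, SE 0.20), and of the 15 tested in retina 0 were called by limma. None of the genes of these 5 lists was called higher in either tissue.

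The level kept with PLX in choroid ran, as a median over genes, from 35.9% for co-receptors to 83.2% for trafficking, 96.2% for adaptors and kinases, 91.5% for transcription factors and 97.5% for inhibitors. It was 42.6% for the receptors, 25.9% for MP markers and 11.3% for markers of tissue-resident macrophages. Single receptors kept 15.8% (Tlr7) to 96.8% (Tlr3), and MP markers 9.16% to 103%.

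**Figure D5:**
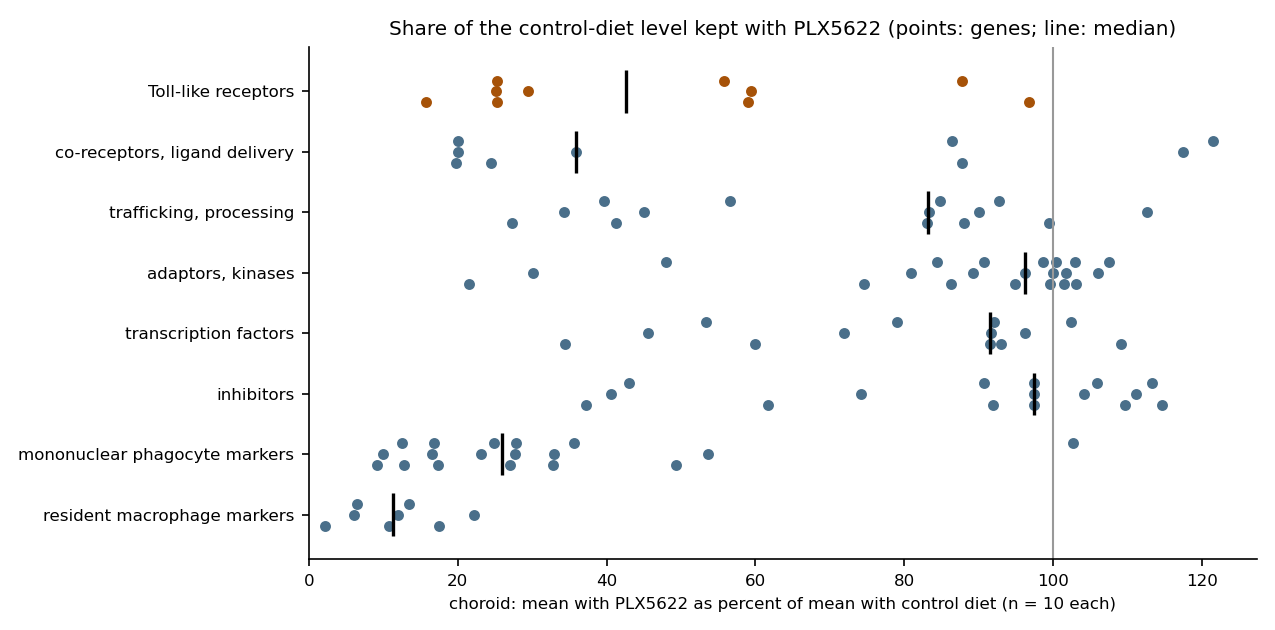
Mean normalized count in choroid with PLX as a percent of the mean without PLX (x axis), for each gene (points) of 8 lists, with the list median (black line) and 100% (grey line). The receptors spread from 15.8% to 96.8% around a median of 42.6%, between the MP markers at 25.9% and the adaptors and kinases at 96.2%.

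Tlr11 and Tlr12, the remaining Toll-like receptor genes of the mouse, were low. Tlr11 had means of 23.01 and 11.9 normalized counts in choroid without and with PLX (log2 difference -0.90, SE 0.29, limma adjusted p = 0.0670), and Tlr12 of 23.3 and 24.2 (-0.20, SE 0.50). In retina both were at most 3.80 without PLX and listed at 0 in all 10 mice with it, and neither reached the minimum mean for the test there.

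The genes whose values followed each receptor most closely over the 20 choroids were named by Pearson's r of log2(normalized count + 1), as a description over libraries that share the diet contrast. For Tlr13 they were Pik3cg (r = 0.989), Itgam (0.986) and Arhgap30 (0.986), and for Tlr8 Itgam (0.980), Ctsc (0.978) and Naip2 (0.975). Tlr7 was followed by Pik3ap1 (0.980), Il21r (0.980) and Ms4a4a (0.980), and Tlr9 by Siglec1 (0.962), Tlr7 (0.961) and Nlrp1b (0.959). For Tlr1 they included Epsti1 (0.980) and Ccl3 (0.973), and for Tlr2 Lcp1 (0.971), Mrc1 (0.970) and Nrros (0.969). The other 4 receptors had no gene with r above 0.859. These were Gbp6 (0.728), Gbp3 (0.713) and Trim34a (0.712) for Tlr3 and 9930111J21Rik2 (0.859), Bach1 (0.844) and Cpd (0.834) for Tlr4. Tlr5 was followed by Nfxl1 (0.809) and Oas3 (0.798), among others, and Tlr6 by Phtf1 (0.777), Pak1 (0.771) and BC005537 (0.771). In retina, where Tlr3 and Tlr4 passed the minimum mean of 20 for this step, Plxdc2 (0.766) and Slc16a4 (0.754) were among the genes closest to Tlr3, and Trim25 (0.738) was the closest to Tlr4.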

How the data were processed

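RNA of choroid and retina of 20 mice was measured as 40 polyadenylated, stranded, single-read libraries. Per the submitters' processing notes and the methods, reads were checked with FastQC 0.11.5, assigned to transcripts of GRCm39 with Salmon 1.10.1, imported with tximport and normalized with DESeq2 1.36.0. The deposited signal, 1 normalized count per gene and library, is not whole, so whole reads were not recovered (46.0% to 72.4% of low values per library lay within 0.1 of a whole read) and no count test was run. Median-of-ratios factors recomputed from the deposited values were 1.008 in all 40 libraries when computed over both tissues, and ran from 0.983 to 1.036 within a tissue, so the table was scaled over both tissues at once. Samples were grouped by the labels, and the mouse number, shared by the tissues of a mouse, was taken from the library names. Over all genes, deviations of a choroid correlated with those of its own retina at -0.11 to 0.18, and the pairing rests on the shared animal number. All 40 columns were matched to samples, and 53700 of 54307 identifiers matched GENCODE vM39.

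Tests used limma 3.58.1 with a mean-variance trend in R 4.3.3 on log2(normalized count + 1), which understates changes of low genes. A gene entered the test when its mean over the 20 libraries of the tissue (40 between tissues) reached 1, and p-values were adjusted over all of them by Benjamini-Hochberg. Each group holds separate mice. Single receptors were also compared by two-sided exact permutation tests, with a smallest p of 0.00794 for 5 mice against 5. The procedure was tested on simulated data. The changes planted there were in genes with higher counts, so this does not cover receptors near 0 in retina. The study's covariates (sex and the xCell neuronal percentage) are not in the labels, and scores for them were alternatives, as were pseudocounts of 0.5 and 5, other minimum means and scalings, fits of the compared groups alone, a robust variance estimate, a mouse block and leaving out each mouse. All 10 receptors are reported. From the other lists, 233 of 234 entries matched, and the 3 called genes with the lowest p per list and tissue were named, with Cd14, Ly96, Cd180, Ly86, Unc93b1, Myd88 and Ticam1 always. The 3 protein-coding genes most alike each receptor were named where means reached 20. A few of these genes are not reported here. Members and lists were chosen with earlier results of these data known. The floor of 3 reads covers counting error only, and SDs, SEs and 95% intervals cover the spread between mice.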

Additional observations from a re-analysis of the deposited data

Results flagged for a closer look

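In 73 groups of 5 mice, the gap of 1 mouse from the other 4 was compared with the group's range. At a rate of 1 in 20, about 3.65 groups would pass 0.71 of the range if values were independent and normally distributed. Some groups lie at a few reads and the same mice recur across genes, so whether more groups passed than by chance cannot be decided. The gap was over 0.71 of the range in 9 groups. In choroid these were Tlr6 in control – PLX (mouse 5 at 326 normalized counts, next 154, gap 0.842 of the range), Tlr7 in Tgfbr2ΔEC + PLX (mouse 17 at 340, next 141, 0.750), Tlr5 in Tgfbr2ΔEC + PLX (mouse 20 at 75.1, next 62.3, 0.758) and Tlr13 in control + PLX (mouse 15 low at 230, next 344, 0.748). Mouse 15 is also the choroid of its group with the most neural retina RNA, and the part of that RNA in its Tlr13 value was not tested.

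In retina they were Tlr5 in control – PLX (mouse 1 at 39.8, next 8.11, gap 0.837) and in Tgfbr2ΔEC + PLX (mouse 17 at 48.9, next 3.84, 0.957), Tlr4 in control + PLX (mouse 13 at 46.1, next 11.2, 0.910), Tlr6 in control + PLX (mouse 11 at 4.50, next 1.74, 0.728) and Tlr8 in control + PLX (mouse 12 at 1.02, the others at 0, 1.00). The last 2 sit at a few reads. Tlr5 in retina thus rests on single mice in 2 of 4 groups.

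The change with PLX differed between the tissues for Tlr13 (1.90 on the log2 scale, choroid minus retina), Tlr2 (1.82) and Tlr7 (1.73) in the limma test of the difference itself. With a pseudocount of 5 in place of 1 none of the 3 was called, and the estimates were 0.54 for Tlr13, 1.11 for Tlr2 and -0.28 for Tlr7, which was at 0 in every retina with PLX.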

How the results depend on the processing

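In choroid, the count of receptors called with PLX over both genotypes stayed at 8 without any single mouse, and it moved by less than 1.5 times under every alternative run. The log2 difference of Tlr3 there ran from -0.093 to 0.0033 when mice were left out in turn. In retina the counts depended on low values. With a minimum mean of 10 they were 3 over both genotypes (6 with a minimum of 1), 3 in controls (5) and 2 in Tgfbr2ΔEC mice (5). Receptors below that minimum were not tested, and Tlr2 in Tgfbr2ΔEC retinas was tested and lost its call (limma adjusted p = 0.0618). In Tgfbr2ΔEC retinas the count was 2 with a pseudocount of 5, 3 with only the groups compared in the fit and between 3 and 5 without 1 mouse, and the cause was not tested. The call of Tlr5 in control choroids was lost without a minimum mean (limma adjusted p = 0.0557) and with only the groups compared (0.195), and Tlr6 in Tgfbr2ΔEC choroids was gained with a sex score (0.0453). In control retinas Tlr1 was lost with a pseudocount of 5 (limma adjusted p = 0.0889) and Tlr2 with the neural retina score (0.0528). In Tgfbr2ΔEC retinas Tlr2 was lost with either score (limma adjusted p = 0.0612 neural, 0.0770 sex) and without a minimum mean (0.0956). There Tlr1 (0.245), Tlr2 (0.131) and Tlr9 (0.0884) were lost with a pseudocount of 5, and Tlr1 (0.117) and Tlr2 (0.107) with only the groups compared. The difference of the PLX effect between tissues was called for 5 receptors with a pseudocount of 0.5 and for 1, Tlr8, with a pseudocount of 5, against 3. With a pseudocount of 5 its estimate turned to -0.32 for Tlr1, -0.0357 for Tlr6, -0.28 for Tlr7 and -0.35 for Tlr9, which were at or near 0 in retinas with PLX, and Tlr2 (1.11, limma adjusted p = 0.0702) and Tlr13 (0.54, limma adjusted p = 0.449) lost their calls. Without mouse 3, Tlr9 was gained (limma adjusted p = 0.0162). With the mouse as a replicate block the comparisons between tissues called 10, 10 and 3 receptors, and the block changed no call. Median-of-ratios scaling within a tissue moved library factors by 0.983 to 1.04 times. Neither it nor scaling by the upper quartile changed a call of a receptor. Depth limits retina, where several receptors were within a few reads of 0.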

Other observations

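Of 14 other sensors of nucleic acids and cell walls, 9 were lower with PLX in choroid over both genotypes, where 5.06% of all genes were, and 3 in retina, where 1.08% were, and none was higher (limma). The other 5 in choroid and 11 in retina were not called. In choroid the lowest p were those of Clec4n, the lectin Dectin-2, with means of 557 and 171 normalized counts (log2 difference -1.76, SE 0.15), the inflammasome sensor Nlrp3 with 117 and 32.4 (-1.99, SE 0.26), and the DNA sensor Aim2 with 263 and 82.2 (-1.94, SE 0.29). In retina Clec7a, the lectin Dectin-1, went from 40.1 to 0.780 (-4.35, SE 0.40), and Nlrp3 (-1.88, SE 0.36) and Clec4n (-2.26, SE 0.48) were called as well.

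Of 19 tested genes that Toll-like receptor signalling is known to induce, 8 were lower in choroid (5.06% of all genes), and of 17 tested in retina 3 were (1.08%), with none higher. In choroid the chemokines Ccl4 (means of 67.5 and 10.3 normalized counts, log2 difference -2.66, SE 0.21), Ccl3 (141 and 26.3, -2.45, SE 0.24) and Ccl2 (357 and 184, -0.97, SE 0.16) had the lowest p. In retina the 3 called were Il1a (9.47 and 0.215, -2.96, SE 0.35), Ccl3 (9.98 and 0.758, -2.36, SE 0.49) and Tnf (2.07 and listed at 0 with PLX), whose mean without PLX is itself under 3 reads.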
